A study of Homo sapiens with 9 samples.

Results

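MicroRNA hairpins other than let-7 were examined for binding by the RNA-binding proteins (RBPs) profiled with antibody-barcode eCLIP (ABC), a crosslinking method in which RNA pulled down with an RBP is marked by a barcode specific to the antibody used. A hairpin peak was a merged peak that overlapped, by at least 1 nt on the same strand, a gene of GENCODE type miRNA whose symbol does not start with MIRLET7. Of 2478204 merged peaks in 54 libraries, 4196 were hairpin peaks, and 489 of the 1868 hairpins other than let-7 held at least 1. The 54 libraries were 10plex ABC of DDX3, EIF3G, FAM120A, IGF2BP2, LIN28B, PRPF8, PUM2, RBFOX2, SF3B4 and ZC3H11A in K562 cells (3 replicates, 30 libraries) and in HEK293 cells (2 replicates, 20 libraries), singleplex ABC of RBFOX2 in HEK293 cells (2) and singleplex ABC of SLBP in K562 cells (2). K562 is an erythroleukaemia line. HEK293 here stands for the embryonic kidney line that the labels call HEK293T and the study's methods HEK293XT, and all cells were crosslinked with ultraviolet light, with no treatment, deletion or transgene named in the labels. Nothing in the labels says whether replicates were separate cultures, so p-values measure only the spread between these samples, which may be technical.

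A microRNA is cut from a hairpin in a longer transcript, first by Drosha with DGCR8 in the nucleus and then by Dicer in the cytoplasm, and 1 arm of the duplex is loaded into an Argonaute protein, where its seed (bases 2 to 8) pairs with target mRNAs. A hairpin may lie in an intron of a host gene, in an exon, or across a splice site, as in mirtrons, whose ends are made by the spliceosome and not by Drosha. LIN28B is known for holding let-7 precursors and blocking their processing, RBFOX2 is a splicing regulator that binds GCAUG, and PRPF8 and SF3B4 are core spliceosome proteins of the 5′ splice site and the branch point.

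The titles of the HEK293 10plex samples name HEK293T cells, whereas their cell line label reads K562, and both are titled rep1, with original numbers of 1 and 2 that are used here. K562 replicate 3 is titled K562 but labelled K563 in its source and cell line, and was taken as K562. The library contents followed the titles. GATA1, KLF1 and TAL1, markers of the erythroid line, held 0 peaks in both HEK293 10plex pools and between 10 and 48 in every K562 10plex pool. NEFL held 40 and 51 peaks in HEK293 and 0 in K562. Other markers were less clean. HBE1 and HBG2 held 1 peak each in both HEK293 pools, and LMO2 held 1 in replicate 1. PAX2, the other HEK293 marker, held 6 and 8 peaks in HEK293 and 1, 1 and 4 in K562. The RBP of a 10plex library is named by its file and not by its sample label. Merged peaks per 10plex library ran from 938 to 79886 in K562 and from 1871 to 206869 in HEK293, and hairpin peaks from 8 to 132 and from 18 to 199. Hairpin peaks rested on few reads: the median per library lay between 4 and 14 in K562 and between 4.50 and 16 in HEK293, which limits the precision of any single fold. The complement control (CC) of a library was the sum of the other 9 barcodes of its pool. A peak was called enriched with P below 0.001 and more than 8-fold over the CC (above 3 on the log2 scale), the limits of the study's methods. Outside K562 replicate 3, P came from a chi-squared statistic at any read number. The study's methods use Fisher's exact test at low read numbers, so calls from few reads may differ from theirs. Of 3764 hairpin peaks in 10plex ABC, 3492 had a CC value and 267 were enriched.

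The sequences below are mature microRNAs of hairpins described here, namely MIR98, those of MIR17HG and MIR144. They are from RefSeq (GRCh38.p14), with the seed in capitals. They group by seed: miR-98-5p has the seed of the let-7 family, miR-17-5p and miR-20a-5p share 1 seed, and miR-19a-3p and miR-19b-3p share another.
hsa-miR-98-5p: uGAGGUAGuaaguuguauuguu
hsa-miR-17-5p: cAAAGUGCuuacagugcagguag
hsa-miR-20a-5p: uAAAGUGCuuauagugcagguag
hsa-miR-18a-5p: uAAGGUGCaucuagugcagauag
hsa-miR-19a-3p: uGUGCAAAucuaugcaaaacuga
hsa-miR-19b-3p: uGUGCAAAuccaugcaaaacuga
hsa-miR-92a-3p: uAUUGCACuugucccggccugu
hsa-miR-144-3p: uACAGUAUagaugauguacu

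The stretch of each hairpin under the bound peaks differed between RBPs. The hairpins below are shown because an RBP was enriched on them in every replicate of a line; capitals mark the bases under its enriched peaks in at least 2 replicates, and the 5′ end is on the left.
MIR98, LIN28B in K562 (chrX:53556223-53556341, minus strand): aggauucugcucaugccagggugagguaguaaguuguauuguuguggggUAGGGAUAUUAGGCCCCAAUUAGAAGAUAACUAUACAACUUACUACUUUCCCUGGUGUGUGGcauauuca
MIR19B1, LIN28B in K562 (chr13:91351192-91351278, plus strand): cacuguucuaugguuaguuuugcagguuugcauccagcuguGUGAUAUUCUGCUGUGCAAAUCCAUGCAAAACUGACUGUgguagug
MIR3620, LIN28B in K562 (chr1:228097263-228097341, plus strand): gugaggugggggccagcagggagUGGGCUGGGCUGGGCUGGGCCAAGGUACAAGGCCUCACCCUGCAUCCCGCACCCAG
MIR92A1, RBFOX2 in K562 (chr13:91351314-91351391, plus strand): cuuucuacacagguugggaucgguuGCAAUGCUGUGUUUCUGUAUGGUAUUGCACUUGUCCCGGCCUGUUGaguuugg
MIR19A, SF3B4 in K562 (chr13:91350891-91350972, plus strand): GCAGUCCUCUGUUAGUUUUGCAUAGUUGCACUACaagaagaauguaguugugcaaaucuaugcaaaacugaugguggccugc
MIR20A, IGF2BP2 in HEK293 (chr13:91351065-91351135, plus strand): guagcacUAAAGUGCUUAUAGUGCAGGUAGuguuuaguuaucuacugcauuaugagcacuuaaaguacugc
MIR6894, PRPF8 in K562 (chrX:53198889-53198945, minus strand): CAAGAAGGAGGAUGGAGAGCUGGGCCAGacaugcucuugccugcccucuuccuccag

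LIN28B held MIR98, the let-7 family member without a let-7 symbol, at the highest fold over the CC of the 11 RBP and hairpin pairs enriched in every K562 replicate. MIR98 lies in an intron of HUWE1, and its log2 fold for LIN28B was 5.68, 8.40 and 7.52 in K562 replicates 1 to 3 (mean 7.20 ± 1.39, SD, n = 3), from 41, 39 and 31 reads. In HEK293 it was 6.50 and 6.01 (mean 6.26 ± 0.35, SD, n = 2), from 33 and 67 reads. All 5 LIN28B libraries were thus high, and only FAM120A had another peak on MIR98, in 1 library of each line, at -2.28 and -1.75. The enriched peaks shared by at least 2 replicates lay over the loop and the 3′ arm, bases 50 to 111 of 119 in K562 and 50 to 99 in HEK293. The peaks of K562 replicate 3 and HEK293 replicate 2 began earlier, at bases 37 and 30, and so reached into miR-98-5p (bases 22 to 43). The hairpin holds no GGAG, the tetramer that LIN28 zinc knuckles hold in let-7 precursors. MIR202, the other hairpin of the let-7 seed outside the let-7 symbols, held no peak in 10plex ABC.

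LIN28B peaks on let-7 hairpins and on the others were set side by side. All 8, 10 and 11 LIN28B peaks on MIRLET7 hairpins in K562 and all 15 and 12 in HEK293 were enriched, with a median log2 fold between 6.46 and 7.57. On hairpins other than let-7 the enriched share was 26.5%, 36.4% and 12.5% in K562 and 14.9% and 17.5% in HEK293, with a median log2 fold between -0.33 and 1.34. The medians and shares per library did not overlap, although single peaks did, with MIR98 at 8.40 in K562 replicate 2, where the highest let-7 peak was at 7.60. The difference was not tested, since peaks of 1 library are not replicates. Beside MIR98, LIN28B was enriched in every K562 replicate on MIR3620 (mean log2 fold 5.49 ± 0.75), MIR6501 (4.90 ± 0.77) and MIR19B1 (3.15 ± 0.24, all SD, n = 3). On MIR19B1 RBFOX2 also had a peak in every K562 replicate, at 2.18, 1.76 and 3.90, the last past the limits. MIR3620, in ARF1, has a 5′ and a 3′ splice site annotated at it, and LIN28B was also enriched on it in both HEK293 replicates (4.06 ± 0.44, SD, n = 2). MIR6501, in an exon of SON (chr21:33550662-33550728, plus strand), had no peak of another RBP in K562. In HEK293, LIN28B was enriched in both replicates on MIR4721 in TUFM, MIR615 in the HOXC cluster and MIR671 in CHPF2. Their mean log2 folds were 4.79, 4.20 and 3.47. In replicate 1 MIR4721 was solved as 1 read over 0 CC reads, which cannot give a P below 0.001. Its fold and call there, and so its mean, are uncertain. In both replicates the MIR4721 peaks overlapped only the 5′ end of the hairpin and lay mostly upstream of it.

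The hairpins of the MIR17HG transcript, which encodes the miR-17-92 cluster, carried different RBPs on different hairpins of the same exon. All 6 held peaks in both lines, 165 peaks in K562 and 118 in HEK293, of which 15 and 10 were enriched; the median log2 fold over the CC was 0.33 and 0.09, against 0.78 and 0.81 over all hairpin peaks with a CC value. RBFOX2 was enriched on MIR92A1 in every K562 replicate, at 4.37, 4.86 and 4.51 on the log2 scale (mean 4.58 ± 0.25, SD, n = 3), from 32, 48 and 93 reads. In HEK293 its highest peaks there reached 3.14 and 2.65, only the former past the limits. The highest value of another RBP on MIR92A1 in K562 was 0.55, of EIF3G. In K562 replicates 1 and 2 the RBFOX2 peak spanned the loop and the 3′ arm. In replicate 3 enriched peaks lined the hairpin from base 9 to base 72, at 3.95 to 4.14, and the highest, with 93 reads, began at base 77 of 78 and lay almost wholly downstream. The hairpin holds no GCAUG.

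SF3B4 was enriched on the 5′ side of MIR19A in all 5 pools. Its log2 fold was 3.79, 3.74 and 5.52 in K562 (mean 4.35 ± 1.01, SD, n = 3), from 33, 98 and 288 reads, and 5.10 and 3.90 in HEK293 (4.50 ± 0.85, SD, n = 2), from 132 and 33 reads. In K562 replicates 1 and 2 and HEK293 replicate 2 the highest peak began upstream of the hairpin and ended on the 5′ arm by base 35. In K562 replicate 3 it lay inside the hairpin on the 5′ arm (chr13:91350911-91350925). In HEK293 replicate 1 it ended just inside the hairpin's 5′ end (chr13:91350885-91350893), before the mature 5′ microRNA. By contrast, miR-19a-3p is bases 49 to 71. Other RBPs also had peaks on the 5′ arm, the highest at 0.88, of RBFOX2 in K562 replicate 2. The highest value of another RBP on MIR19A was 2.02 in K562 and 2.51 in HEK293, and SF3B4's own peaks on the 3′ arm lay between -1.51 and 0.36. On MIR17, MIR20A and MIR18A in K562 SF3B4 had either no peak or a log2 fold below 0.

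IGF2BP2, an mRNA-binding protein of the cytoplasm, stood above the pool on the mature arms of MIR17, MIR19A and MIR20A at a lower fold. On MIR20A its highest log2 fold per library was 2.08, 1.93 and 2.04 in K562 and 3.20 and 3.06 in HEK293, from 17, 48, 168, 154 and 54 reads. On MIR17 it was 2.39, 1.51 and 1.89 in K562 and 2.26 and 3.20 in HEK293, and on MIR19A 2.02, 1.93 and 1.81, then 2.41 and 2.51. The values of the 5 pools lay close together, and the mean of IGF2BP2 was the highest of the 10 RBPs on MIR17 and MIR20A in both lines, while only MIR20A in HEK293 was past the limits in both replicates. FAM120A, an RNA-binding scaffold protein, had its highest values of the cluster on MIR18A, at 1.76, 1.76 and 1.65 in K562 and 2.47 and 2.33 in HEK293. These values were singled out after they were seen and carry no test.

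**Figure D1:**
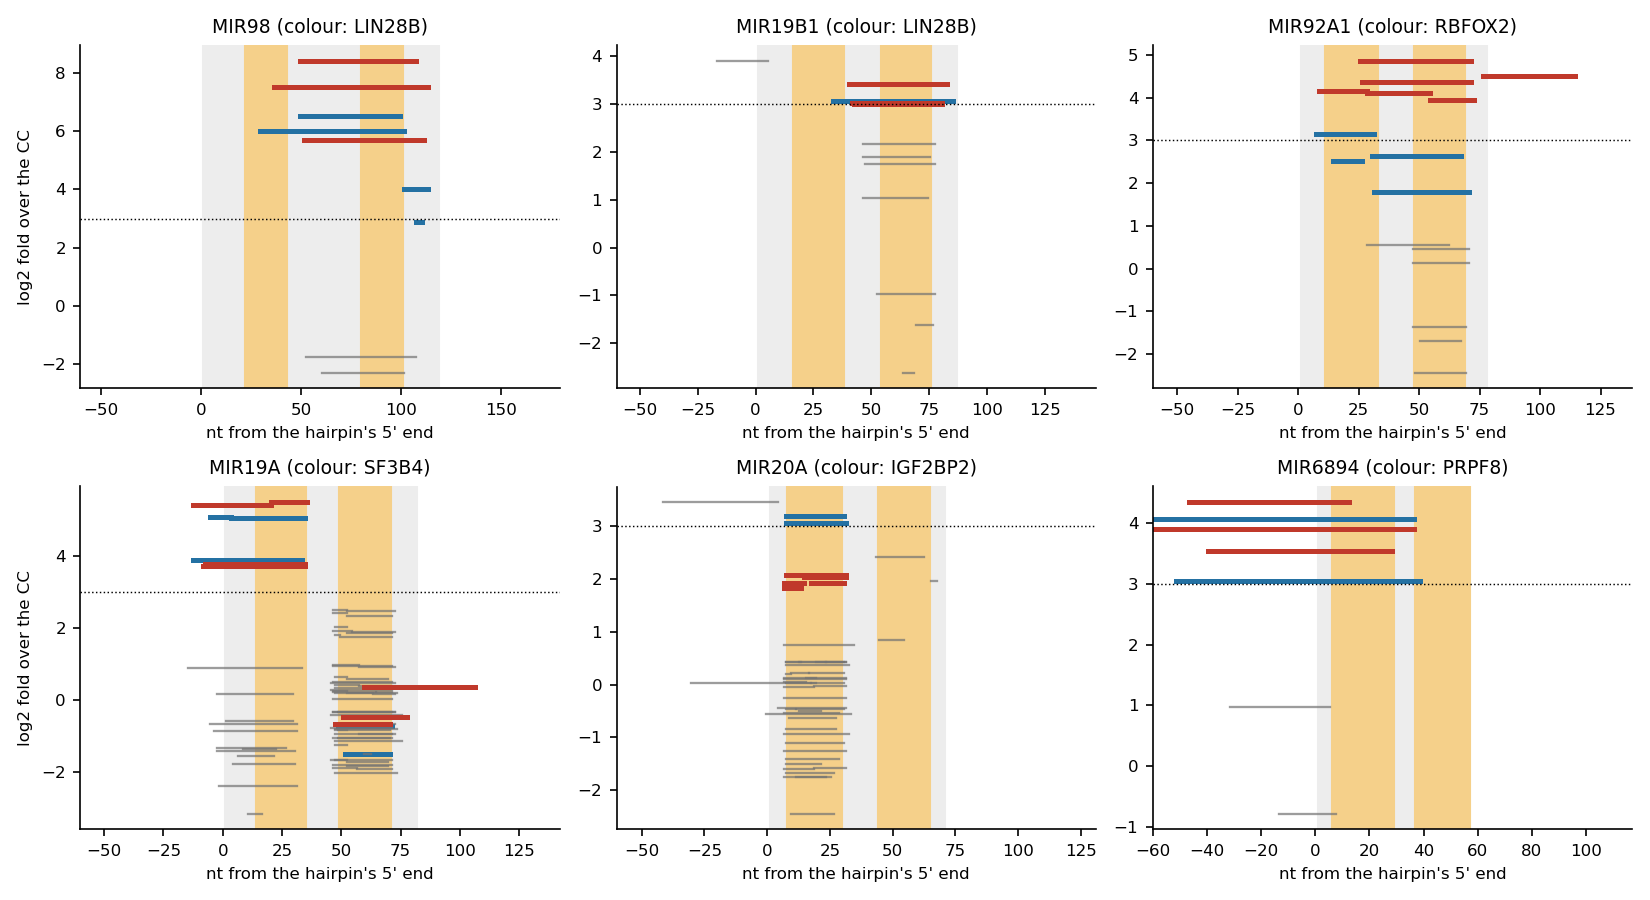
Each line is a 10plex ABC peak drawn from its first to its last base (x axis, nt from the 5′ end of the hairpin) at its log2 fold over the CC (y axis). Red lines are peaks in K562 and blue lines in HEK293 of the RBP named above each plot, and grey lines those of the other RBPs in either line. The grey band is the hairpin, the orange bands its mature microRNAs, and the dotted line the 8-fold limit. LIN28B on MIR98 and MIR19B1 lies mostly over the loop and the 3′ arm, RBFOX2 on MIR92A1 along the hairpin and, in K562 replicate 3, past its 3′ end, and SF3B4 on MIR19A over the 5′ arm, where the highest peak of another RBP is at 0.88 on the log2 scale.

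**Figure D2:**
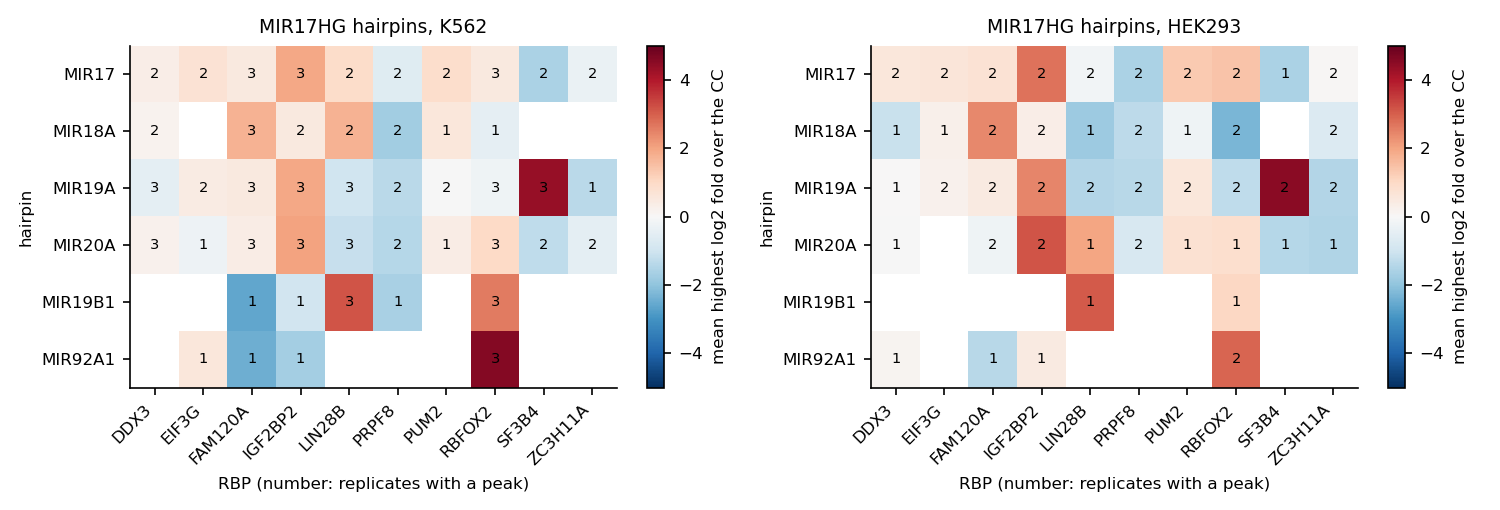
Mean over replicates of the highest log2 fold over the CC of a peak (colour) for the 6 hairpins of MIR17HG (rows) and the 10 RBPs (columns) in K562 and HEK293, with the number of replicates that held a peak printed in each cell and white where there was no value. SF3B4 on MIR19A (4.35 and 4.50) and RBFOX2 on MIR92A1 (4.58 in K562) stand out from their rows, and IGF2BP2 is red along MIR17, MIR19A and MIR20A.

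Singleplex RBFOX2 in HEK293 ranked the same cluster highest, over an external background in place of a CC, so its folds are not on the scale above. It held 396 hairpin peaks, of which 107 were enriched (27.0%, against 10.0% of all its merged peaks). The hairpins with the highest mean log2 fold over both replicates were MIR19A (7.69 ± 0.17), MIR17 (7.59 ± 0.22) and MIR92A1 (6.41 ± 0.39, all SD, n = 2). On MIR19A the highest peaks lay upstream of the hairpin and over the 5′ arm, and on MIR17 mostly upstream of it. Singleplex SLBP, the histone stem-loop binding protein, held 36 hairpin peaks, of which 27 were enriched (75.0%, against 55.3% of all its peaks). It was led by MIR4449 (9.32 ± 0.92), MIR1248 (8.98 ± 0.28) and MIR19A (6.44 ± 1.24, all SD, n = 2). Reads were 43 and 25 on MIR4449 and 61 and 11 on MIR1248, but only 5 and 4 on MIR19A. MIR1248 overlaps SNORA81, and it and MIR4449 held a peak in all 30 K562 and all 20 HEK293 libraries of 10plex ABC, with a median log2 fold over the CC between 0.48 and 0.70.

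For most RBPs a smaller share of hairpin peaks than of all peaks was enriched over the CC. In K562, 30 of 118 LIN28B hairpin peaks were enriched (25.4%, against 37.4% of all LIN28B peaks), 35 of 207 for SF3B4 (16.9%, against 30.8%) and 37 of 262 for PRPF8 (14.1%, against 22.5%). The lowest were FAM120A, with 4 of 333 (1.20%, against 18.6%), and IGF2BP2, with 4 of 215 (1.86%, against 12.0%). DDX3, a helicase of translation initiation, had 12 of 155 (7.74%, against 21.2%), and RBFOX2 16 of 243 (6.58%, against 11.3%). All of these shares were below the background of the same RBP. So were those of the initiation factor subunit EIF3G (5.56%, against 31.8%), of PUM2 (4.65%, against 30.2%) and of the zinc finger protein ZC3H11A (4.26%, against 22.4%).

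In HEK293 SF3B4 had the highest share, 29 of 152 (19.1%, against 24.2%), followed by LIN28B with 17 of 107 (15.9%, against 28.0%). EIF3G had 10.3% (against 21.0%), PRPF8 8.05% (against 17.9%) and DDX3 7.61% (against 13.4%). PUM2 had 6.38% (against 23.4%), ZC3H11A 3.70% (against 12.5%) and RBFOX2 3.14% (against 6.02%). FAM120A and IGF2BP2 were again lowest, with 2.88% (against 21.2%) and 2.75% (against 5.29%). In neither line did an RBP differ from the other 9 in the share of its enriched peaks that lay on hairpins (exact permutation of the RBP labels within replicates, smallest adjusted p = 0.55 in K562 and 0.70 in HEK293); HEK293 with 2 replicates allows no adjusted p below 0.1 for a single RBP.

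**Figure D3:**
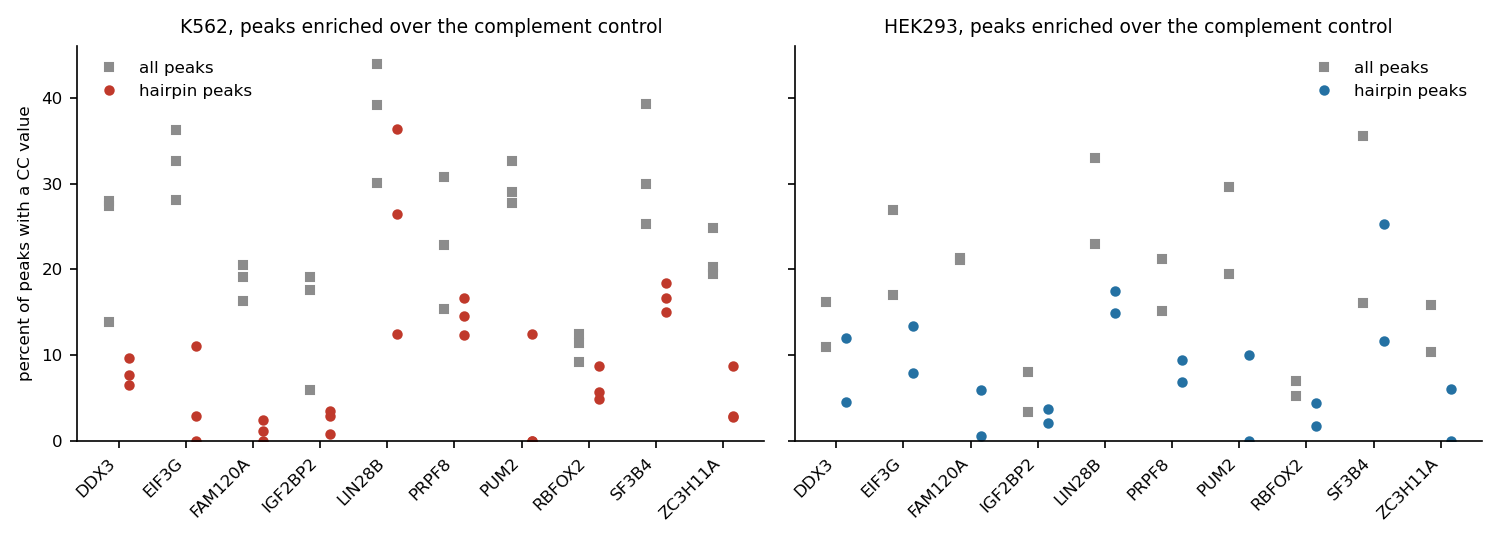
Percent of peaks with a CC value that were enriched over the CC (y axis) for each RBP (x axis); each point is a library, grey squares all peaks and coloured circles hairpin peaks. Hairpin peaks lie mostly below all peaks of the same RBP, down to 1.20% against 18.6% for FAM120A in K562 over its 3 libraries.

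Of all merged peaks, hairpin peaks were a small share, with a median over libraries of 0.31% in K562 and 0.20% in HEK293. PUM2, which binds 3′ UTRs of mRNAs, had the highest, at 0.853%, 1.04% and 1.48% in K562 (mean 1.13% ± 0.32, SD, n = 3) against 0.340% for the other 9 RBPs (two-sided exact permutation, p = 0.001, the smallest that 1000 choices allow, adjusted p = 0.01). In HEK293 PUM2 had 1.82% and 0.604%, against 0.234% (exact permutation, p = 0.01, adjusted p = 0.1). PUM2 also had the shortest peak lists of the pools, between 938 and 1535 merged peaks in K562, and its hairpin peaks numbered 8, 16 and 19 on 5, 13 and 14 hairpins; the part of list length in its share was not tested. No other RBP passed the threshold in either line.

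**Figure D4:**
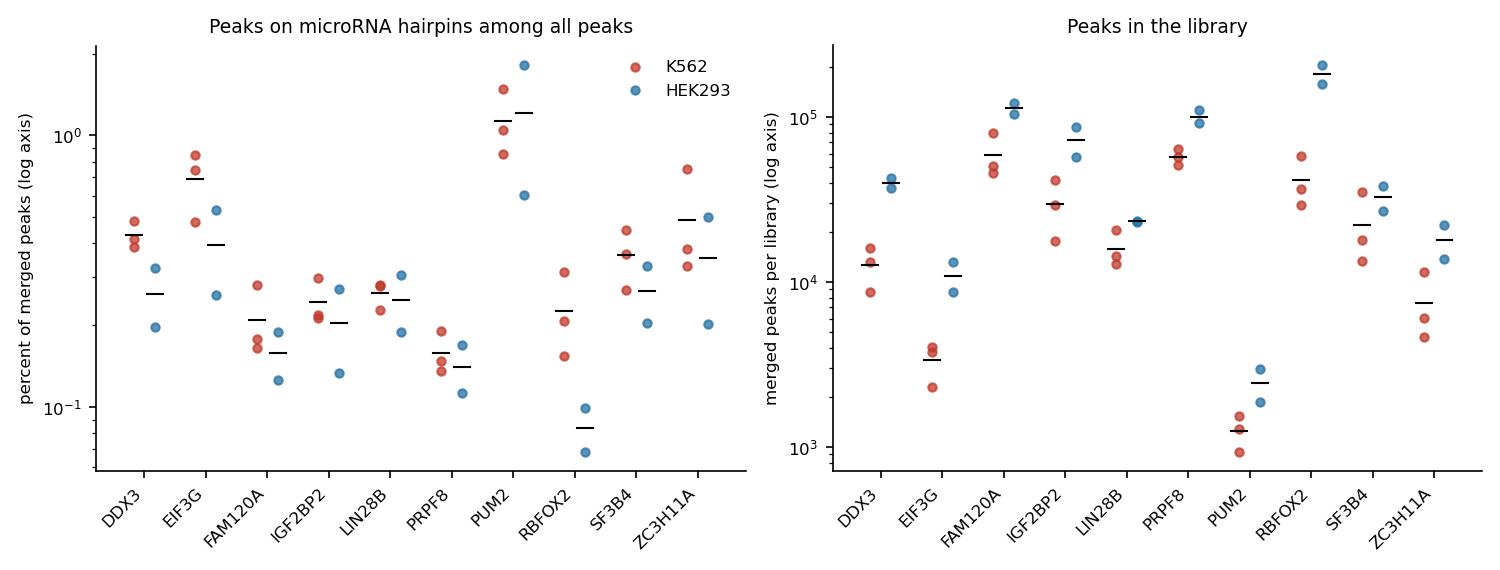
Left, percent of the merged peaks of a library that lie on hairpins other than let-7 (log y axis); right, merged peaks per library (log y axis). Each point is a library of the RBP on the x axis, red K562 and blue HEK293, and bars are means. PUM2 has the highest shares (0.853% to 1.48% in K562) and the fewest peaks.

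Hairpins in exons and in introns of their hosts were then set apart. A hairpin that overlapped an exon of any annotated host transcript counted as exonic, also where it lay across a splice site. Of 361 exonic hairpins, 198 held a peak in any library (54.8%), against 281 of 1004 in introns (28.0%) and 10 of 503 with no host (1.99%). The enriched share over both 10plex sets was 8.10% of 2000 peaks on exonic and 7.15% of 1468 on intronic hairpins. DDX3 and EIF3G, both of translation initiation, had their enriched peaks mostly on exonic hairpins: DDX3 had 11 of 106 exonic and 1 of 47 intronic peaks enriched in K562, and 11 of 101 and 3 of 81 in HEK293. EIF3G had 4 of 50 and 0 of 22 in K562, and 6 of 35 and 1 of 33 in HEK293. PRPF8 had the larger share on intronic hairpins in K562, 24 of 104 (23.1%) against 13 of 158 (8.23%), and 8.94% against 7.25% in HEK293. LIN28B had 23.4% on exonic and 29.3% on intronic hairpins in K562, and 16.4% and 15.2% in HEK293.

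The share of an RBP's hairpin peaks that lay on exonic hairpins did not differ from that of the other 9 for any RBP after correction. PUM2 came nearest in K562, with 87.5%, 68.8% and 68.4% (mean 74.9% ± 10.9, SD, n = 3) against 63.0% (two-sided exact permutation, p = 0.013, adjusted p = 0.13). In HEK293 it was on the other side, with 44.1% and 38.9% against 50.9%. FAM120A had 55.7% ± 1.19 (SD, n = 3) in K562 against 65.1% (exact permutation, p = 0.042, adjusted p = 0.21). The only hairpin on which DDX3 was enriched in every K562 replicate was MIR3615, in an exon of NHERF1 (chr17:74748613-74748699, plus strand), with a log2 fold of 4.82, 4.42 and 4.53 from 3, 5 and 14 reads.

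Spliceosome proteins were placed by splice sites. Of the hairpins, 70 hold or lie within 2 nt of an annotated 5′ splice site and 272 a 3′ splice site, and 48 and 154 of these held a peak. PRPF8 had 29.0%, 17.9% and 18.0% of its K562 hairpin peaks on hairpins with a 5′ splice site (mean 21.6% ± 6.37, SD, n = 3), against 7.22% for the other 9 RBPs (two-sided exact permutation, p = 0.001, adjusted p = 0.01). In HEK293 PRPF8 had 15.6% and 24.4%, against 8.43% (exact permutation, p = 0.01, adjusted p = 0.1). SF3B4 came next, with a mean of 14.8% in K562 and 14.0% in HEK293, and PUM2 was at 0% in all 3 K562 libraries.

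SF3B4 had 43.9%, 48.4% and 31.7% of its K562 hairpin peaks on hairpins with a 3′ splice site (mean 41.3% ± 8.67, SD, n = 3), against 9.42% for the other 9 (two-sided exact permutation, p = 0.002, adjusted p = 0.02). In HEK293 it had 43.8% and 44.9%, against 12.3% (exact permutation, p = 0.01, adjusted p = 0.1). PRPF8 was close behind, with 34.8%, 32.1% and 32.0% in K562 (exact permutation, p = 0.012, adjusted p = 0.06) and a mean of 32.1% ± 4.06 (SD, n = 2) in HEK293. Both proteins lay above every other RBP's mean in both lines, the next being LIN28B at 12.6% in K562 and ZC3H11A at 15.8% in HEK293. A 3′ splice site was annotated at both hairpins on which PRPF8 was enriched in every K562 replicate, MIR6894 in KDM5C (log2 fold 3.55, 4.35 and 3.91) and MIR4722 in PIEZO1 (chr16:88716278-88716337, minus strand; 3.33, 3.09 and 3.29), and no other RBP had a peak on either in K562. PRPF8 peaks there began upstream of the hairpin and reached base 28 of MIR6894 and base 22 of MIR4722 in at least 2 replicates.

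**Figure D5:**
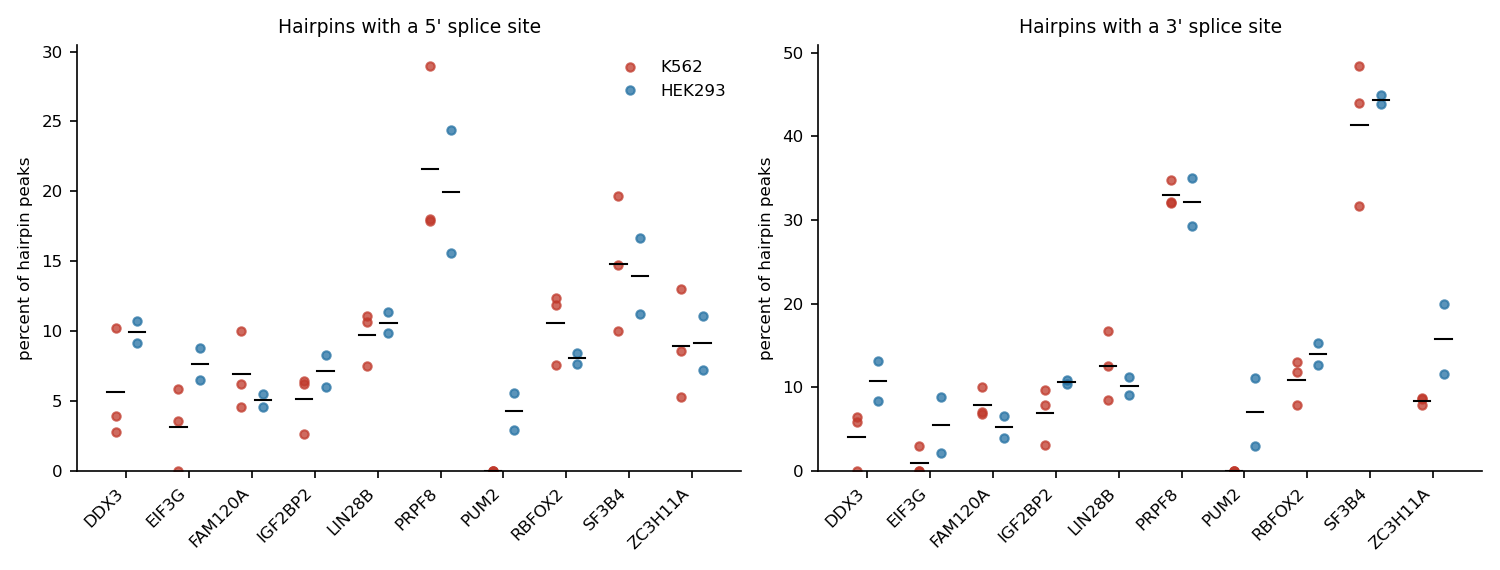
Percent of the hairpin peaks of a library that lie on hairpins with an annotated 5′ splice site (left) or 3′ splice site (right) inside or within 2 nt; each point is a library, red K562 and blue HEK293, and bars are means. PRPF8 is highest on the left (mean 21.6% in K562) and SF3B4 on the right (41.3%), with PRPF8 second (33.0%).

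SF3B4 was enriched in every K562 replicate on 2 hairpins beside MIR19A, both with a 3′ splice site: MIR3940 in KHSRP (chr19:6416410-6416511, minus strand; mean log2 fold 3.65 ± 0.53) and MIR939 in CPSF1 (3.79 ± 0.28, both SD, n = 3), the latter from 10, 6 and 7 reads. In HEK293 the highest mean log2 folds of SF3B4 were MIR6878 in TARS2 (5.09), MIR19A and MIR6859-4 (4.34), which is 1 of several near-identical copies, so that its reads are uncertain; MIR4688 in DGKZ (3.69) and MIR3064 in DDX5 (3.51) followed. PRPF8 in HEK293 was enriched in both replicates on MIR6850 in RPL8 (4.13, from 3 reads over 0 CC reads in each replicate, at -1.74 and -1.46 over the external background, and with RBFOX2 at 4.32 in 1 replicate), MIR6798 in RUVBL2 (4.01), MIR555 in ASH1L (3.83) and MIR6894 again (3.56). DDX3 and EIF3G each had 1 such hairpin in HEK293, MIR4687 in STIM1 (3.75) and MIR4523, an exonic hairpin in TAOK1 (3.46). Some of these HEK293 peaks were centred outside the hairpin in both replicates. The centres lay past the 3′ end for EIF3G on MIR4523 and SF3B4 on MIR4688. They lay before the 5′ end for PRPF8 on MIR6850 and MIR6894 and for SF3B4 on MIR3064. Enriched in every replicate were 11 pairs of RBP and hairpin in K562 and 17 in HEK293. The 17 include the uncertain call of LIN28B on MIR4721. Calls from 3 reads may also fail Fisher's exact test, which was not run here. These include PRPF8 on MIR6850, replicate 1 of SF3B4 on MIR6859-4 and, among the 11 K562 pairs, replicate 1 of DDX3 on MIR3615. In both lines were 4 pairs, LIN28B with MIR98 and MIR3620, PRPF8 with MIR6894 and SF3B4 with MIR19A.

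Many hairpin peaks lay within a mature microRNA. Peaks inside a mature microRNA extended by 5 nt at each end are here called mature-sized. The class has no lower length limit, and its median length was 16.5 nt for FAM120A in K562. Mature-sized peaks made up 617 of 1830 hairpin peaks in K562 (33.7%) and 827 of 1934 in HEK293 (42.8%), with a median length of 20 nt. Of those with a CC value, 9 of 610 (1.48%) were enriched in K562 and 30 of 792 (3.79%) in HEK293. Of peaks that touched a mature microRNA but reached beyond it, 99 of 625 (15.8%) and 59 of 508 (11.6%) were enriched, with a median length of 43 and 46.5 nt. For LIN28B in K562 the counts were 1 of 32 mature-sized peaks and 25 of 56 that reached beyond, and in HEK293 0 of 43 and 12 of 38. Against the other peaks on hairpins with a listed mature microRNA, the median log2 fold of mature-sized peaks was lower in every library of LIN28B, PRPF8 and SF3B4, between -0.82 and 0.99 against 1.14 to 3.27. It was higher in every library of FAM120A, between 0.48 and 0.89 against -0.75 to 0.36, and of IGF2BP2, between 0.70 and 1.86 against 0.47 to 0.97. This class was set after the data were seen.

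FAM120A had the largest share of mature-sized peaks, 42.2%, 57.6% and 65.1% in K562 (mean 55.0% ± 11.7, SD, n = 3) against 27.1% for the other 9 RBPs (two-sided exact permutation, p = 0.001, adjusted p = 0.01). IGF2BP2 followed with 31.6%, 43.8% and 56.5% (exact permutation, p = 0.036, adjusted p = 0.18). In HEK293 FAM120A had 65.3% and 46.1% against 40.2% (exact permutation, p = 0.11, adjusted p = 0.28), and there PUM2 was highest, at a mean of 61.8%. No RBP passed the correction in HEK293.

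The letters of known motifs were counted next. GGAG, searched on the sense strand, is in 41.3% of all 1868 hairpins and in 45.4% of those with a peak. LIN28B had 50.0% and 46.8% of its hairpin peaks in K562 replicates 1 and 2 on hairpins with GGAG, and less in replicate 3 (mean 45.6% ± 5.11, SD, n = 3), against 35.5% for the other 9 (two-sided exact permutation, p = 0.039, adjusted p = 0.13 over the 10 RBPs). PRPF8 had 46.3%, and PUM2 was below the others with 24.0% ± 7.78 (SD, n = 3; exact permutation, p = 0.001, adjusted p = 0.01). In HEK293 PUM2 had 15.5%, and LIN28B there had 28.2% and 34.1%, against 32.2%. GCATG, the RBFOX2 motif, is in 7.01% of all hairpins. Searched on the sense strand in the peak and 50 nt on each side, it was found for RBFOX2 in K562 at 9.21%, 8.99% and 9.78% against 11.4% (exact permutation, p = 0.275), and in HEK293 at 14.7% and 15.5% against 9.24% (exact permutation, p = 0.03, adjusted p = 0.25), neither of which passed the correction.

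Peaks of some hairpins followed the line. In the 10plex sets 280 hairpins held a peak in K562 and 361 in HEK293, of which 210 held one in both lines, 75.0% of the K562 and 58.2% of the HEK293 hairpins. Of 6 hairpins listed as erythroid or myeloid, MIR144, MIR451A and MIR223 held 69 peaks in 24 K562 libraries, and none of the 6 held a peak in HEK293. MIR451A, made without Dicer, held a peak in 22 of 30 K562 libraries, and the log2 fold over the CC ran from -2.18 to 2.82 with a median of 0.10, the highest being PUM2 in replicate 2. MIR144, beside it in the same transcript, ran from -1.39 to 1.48, and MIR223 from -2.47 to 3.31, with only SF3B4 enriched, in 1 of 3 replicates. Conversely MIR99A, of the let-7 companion clusters, held a peak in all 20 HEK293 libraries and in none of K562, with all of its peaks mature-sized and log2 folds from -2.83 to 1.94. In bulk lysates fewer molecules of a microRNA and less binding of each cannot be told apart, and no RNA level of the hairpins was used here.

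The other lists gave few calls. Of the MCM7 cluster (MIR106B, MIR93 and MIR25), all 3 held peaks, with 2 of 35 enriched in K562 and 0 of 43 in HEK293, and the X cluster held peaks on 3 of 6 hairpins with none of 10 and 7 enriched. MIR21, MIR22 and the MIR15 and MIR16 genes held 66 peaks in K562, of which 2 were enriched, and 78 in HEK293, of which 1 was. MIR1306, in an exon of DGCR8, the partner of Drosha, held RBFOX2 above the pool, at 2.63, 3.46 and 3.11 in K562 from 37, 80 and 45 reads, of which replicates 2 and 3 were enriched, and at 2.48 and 2.24 in HEK293 from 114 and 144 reads; no other RBP there passed 1.44. Of MIR20B and MIR107, listed as precursors that RBFOX proteins bind, only MIR107 held peaks, 2 in HEK293, none enriched. MIR103A2, in an intron of PANK2, a pantothenate kinase gene, held a peak of RBFOX2 alone in K562, at 4.18, 2.76 and 1.39 from 4, 7 and 3 reads, none enriched. The 7 hairpins that overlap small nucleolar or Cajal body RNA genes held 283 peaks in K562, with 1 enriched, and 178 in HEK293, with none.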

How the data were processed

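Libraries were processed by the authors, who trimmed adapters, mapped reads to GRCh38, removed PCR duplicates by molecular identifiers and called peaks with CLIPper; the submitters' processing notes name STAR 2.7.6 and cutadapt 2.8. The deposited merged peaks hold the log2 fold and the −log10 P of each peak over a background, capped at 400. Backgrounds that the authors' methods name are RNA-seq, size-matched input and the CC, and the one used is not named per library. It was not the same for all RBPs. In HEK293 replicate 1, RBFOX2 and FAM120A held an estimated 26.0% and 25.0% of the pool's reads. Their ratios of background to library reads were 1.48 and 27.0, so folds over it are not on 1 scale. The deposited files also hold a CLIPper p-value for each peak and a whole-number display score, and neither was used for a call. For K562 replicate 3 the log2 fold and −log10 P over the CC were deposited. For the other 10plex pools the authors deposited a chi-squared statistic over the CC, outside repeats, from which CC reads were solved. P was taken from the same statistic at any read number. On statistics computed from the deposited folds of replicate 3, solving recovered the direction for 96.3% to 99.3% of peaks and at least 99.97% of the enriched peaks. This checks the solving step and not the deposited statistics. In the pools that were solved, a whole number of CC reads gave the statistic for 58.2% of peaks (HEK293 RBFOX2 replicate 2) to 99.0% (K562 PUM2 replicate 1). Where a replicate 3 peak had no equal in the CC list, the peak of the same strand with the largest overlap was taken.

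Hairpins were taken from GENCODE release 44, whereas the authors used release 35 of the same build. To compare shares per library, RBP labels were exchanged in every possible way inside each replicate (exact two-sided permutation test), with Benjamini-Hochberg adjustment over the 10 RBPs and a threshold of 0.05 (Python 3.11.15, numpy 2.4.6, pandas 2.3.3, scipy 1.17.1). In 300 simulated data sets of the hairpin share, the unadjusted permutation p of a single preset RBP was checked. It was at most 0.05 in 2% (K562) and 3% (HEK293) with no difference and in 100% with a 5-fold one. The adjusted p was not simulated. The RBPs of a replicate share cells and CC. Named hairpins were up to 3 per RBP and line with an enriched peak in every replicate, ranked by mean fold, up to 3 per singleplex group, and the members of the lists; the others enriched in every replicate were named after their values were seen. The hairpins and lists were chosen with earlier results of these data known. Alternatives changed the overlap rule, the hairpins kept, adapter-like sites, the limits, the background, the exon set, the motif window, the replicate block and the replicates used. Intervals for single peaks were not computed, and depth is given as reads per peak.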

Additional observations from a re-analysis of the deposited data

Results flagged for a closer look

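The share of PUM2 hairpin peaks on exonic hairpins lay above that of the other 9 RBPs in every K562 replicate, by 11.9 percentage points on average, and below it in both HEK293 replicates, by an average of -9.44 percentage points. The difference between the lines was not tested.

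The share of LIN28B hairpin peaks on hairpins with GGAG was 10.1 percentage points above that of the other 9 RBPs in K562 and differed by -1.06 percentage points in HEK293. The difference between the lines was not tested.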

How the results depend on the processing

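Of 560 alternatives for 60 single results, 551 kept the side of the threshold. Direction was compared only for results that passed it. Of 121 alternatives for 12 comparisons, 89 were classed as unchanged. For comparisons of 1 RBP this asked for the same direction and side of the threshold, and for counts a similar number. The RBPs that passed for the hairpin share and for the mature-sized share in K562 went from 1 to 0 when any replicate was left out, since 2 replicates allow no adjusted p below 0.1; for the mature-sized share HEK293 in place of K562 also gave 0. For the share of enriched peaks in K562, 1 RBP (PUM2) passed with any fold above 1 and 1 with the external background. The LIN28B excess in GGAG fell to 7.65 percentage points (exact permutation, p = 0.125) with the peak centre in the hairpin, 7.72 (p = 0.112) with at least 50% of the peak in it and 5.56 (p = 0.163) with GGAG in the peak, was 13.4 (p = 0.072) without hairpins on small RNA genes, 9.75 to 10.4 without 1 replicate, and -1.06 (p = 0.85) in HEK293. The RBFOX2 difference in GCATG was -3.67 (exact permutation, p = 0.028) without mature-sized peaks and 5.83 (p = 0.03) in HEK293. The causes were not tested. HEK293 in place of K562 and leaving out mature-sized peaks were chosen after seeing the data.

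Pairs of RBP and hairpin enriched in every replicate, 11 in K562 and 17 in HEK293, numbered 5 and 4 at P below 1e-05 and more than 16-fold, 43 and 76 at any fold above 1, and 142 and 293 over the external background. In HEK293 both the centre and the 50% rule gave 10. Without 1 replicate, which asks for fewer enriched replicates, there were 14 to 20 in K562 and 46 to 60 in HEK293.

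Without the replicate block (labels permuted over all libraries of a line) the LIN28B excess in GGAG, 10.1, had a permutation p of 0.0597, the PRPF8 excess at 5′ splice sites was 14.4, the SF3B4 excess at 3′ splice sites 31.9 and the RBFOX2 difference in GCATG -2.07. The numbers of RBPs that passed were again 1 for the hairpin share and 1 for the mature-sized share in K562, and 0 for the exonic share in K562, the share of enriched peaks in both lines and the hairpin share in HEK293. Leaving out a HEK293 replicate was not run for the permutation tests, since 1 replicate of 10 RBPs cannot go below p = 0.1. Few reads per hairpin peak limit each fold.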
